A study of Mus musculus with 12 samples.

Results

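The cytosolic ribosomal protein genes were followed through liver immune cells of mice given polyIC, an antibody to PD-L1, both or neither. Members were taken by symbol: Rpl or Rps followed by digits and at most 1 ending letter such as a, x or l, together with Rplp0, Rplp1, Rplp2 and Rpsa. The S6 kinase genes, pseudogenes marked -ps and the mitochondrial Mrpl and Mrps genes were left out. The rule found 81 of 24319 entries, of which 46 encode proteins of the large subunit, 3 the stalk of that subunit and 32 proteins of the small subunit. The rule itself uses symbols and no measured value.

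A ribosome is built from ribosomal RNA and ribosomal proteins, and lymphocytes that become activated enlarge and make more ribosomes. The genes of these proteins are among the most strongly transcribed of any cell. Most of these genes have many processed pseudogenes, which are old reverse-transcribed copies of the mRNA elsewhere in the genome. The mRNAs carry a 5′ terminal oligopyrimidine (TOP) tract, a C at the cap followed by a run of C and T bases, through which the kinase mTOR and the RNA-binding protein Larp1 adjust their translation.

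All mice, controls included, were C57BL/6 animals that on day 0 were given human c-Myc and N-ras by hydrodynamic transfection, a rapid injection of a large volume that carries DNA into liver cells. The combination group received 4 mg/kg polyIC, a synthetic double-stranded RNA, intraperitoneally on days 14, 16, 18, 20 and 22, and 200 µg of antibody to PD-L1 on days 17, 19 and 21. The polyIC group received polyIC on the same days with 200 µg IgG in place of the antibody. The antiPDL1 group received the antibody, with PBS in place of polyIC. The control group received PBS and 200 µg IgG. RNA came from cells captured with magnetic beads and an antibody to CD45, a surface protein of immune cells, and each group has 3 libraries, numbered 0 to 2. The treatment text puts the end point at day 24 and the time point label at day 22. The labels do not say that the libraries of a group are separate mice, so p-values measure only the spread between these samples, which may be technical.

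Values are FPKM, fragments scaled by transcript length and by library size. The table held no read counts, so depth could only be estimated, in relative terms. FPKM totals ran from 476111 to 677535. The small RNA gene Mir6236 took 4.97% to 20.6% of each total. Its mean share was 18.0% in combination, 17.5% in polyIC, 9.63% in antiPDL1 and 10.8% in control. Relative depth, estimated from ratios between libraries of values under 0.2 FPKM, ran from 0.481 to 1. The estimate lay near the most common ratio for 34 of 66 pairs of libraries, so it is rough. Ptprc, which encodes CD45, was present throughout, at 381, 479.8 and 487 FPKM in the combination libraries, 379, 416 and 371 in the polyIC libraries, 340.0, 327 and 268 in the antiPDL1 libraries, and 206, 251 and 261 in the control libraries. Markers of hepatocytes, which lack CD45, were present in every library, with summed FPKM of 239 to 401 in combination, 2047 to 2735 in polyIC, 486 to 2642 in antiPDL1 and 1601 to 5107 in control. All 14 hepatocyte markers had values above 0. In such bulk samples fewer cells of a type and less RNA per cell cannot be told apart.

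The start regions of the genes in this account were read from RefSeq (build GRCm38.p6), in which 60 of the 81 members had an annotated start with its flanking sequence. Each line gives 30 bases, 10 before the annotated start and 20 from it on, 5′ to 3′ on the strand of the gene. Capitals mark a C followed by at least 4 bases that are each C or T, where such a run begins within 5 bases of the start. Rps6, Rps9 and Rpl15 each show such a run. Rps6 is a gene under 10 FPKM whose protein is the target of the S6 kinases, and Rps9 is among the 5 highest. Rpl15 has 1 of the 4 lowest differences of combination against control. The run in Rps9 begins 5 bases before the annotated start, where the base is T, so it is not a TOP tract at that start. Rpl26, Rps23 and Rps15a passed the test of combination against control, and Rps27 and Rps27l are a paralog pair.

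Rps6: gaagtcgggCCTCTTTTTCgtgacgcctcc

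Rps9: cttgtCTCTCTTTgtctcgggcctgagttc

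Rpl15: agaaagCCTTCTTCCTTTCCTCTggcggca

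Rps15a: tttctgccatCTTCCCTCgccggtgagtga

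Rps23: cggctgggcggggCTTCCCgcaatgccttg

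Rpl26: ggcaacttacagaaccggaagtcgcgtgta

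Rps27: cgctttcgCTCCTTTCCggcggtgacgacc

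Rps27l: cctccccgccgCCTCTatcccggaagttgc

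The deposited values were made on mm9, so these GRCm38.p6 coordinates describe the annotated genes only. The windows lie at chr4:86857348-86857377 (minus strand) for Rps6, chr7:3704031-3704060 (plus strand) for Rps9, chr14:18270967-18270996 (minus strand) for Rpl15 and chr7:118116128-118116157 (minus strand) for Rps15a. Those of the others are chr13:90923112-90923141 (plus strand) for Rps23, chr11:68901556-68901585 (plus strand) for Rpl26, chr3:90213629-90213658 (minus strand) for Rps27 and chr9:66946076-66946105 (plus strand) for Rps27l. A run of this kind was found in 28 of the 60 member genes (46.7%), against 5718 of 27025 genes with a start in the same source (21.2%). The Rpl26 window has no such run at its annotated start, and the run in Rps23 begins 3 bases after the annotated start. In the 300 bases around each start (250 before and 50 after), searched on both strands, CCGGAAG, the core letters bound by ETS family factors, was present in 25 members (41.7%) and in 9.93% of all genes. AAGATGG, letters within the YY1 motif, was present in 9 members (15%) and in 7.28% of all genes. TATAAA, the TATA box, was present in 6 members (10%) and in 15.7% of all genes. No overlap between these matches was removed, and a match is a description of letters.

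The members ran from genes among the highest of the table to genes near 0. Their median level was 103 FPKM, against 11.3 FPKM over the 11990 genes that passed the filter of at least 1 FPKM in at least 3 libraries. Of the 81 members, 14 averaged at least 1000 FPKM, 42 at least 100, 55 at least 10 and 26 less than 10, and 17 were among the 100 highest entries of the table. Among the 5 highest, as means over 12 libraries, were the stalk gene Rplp1 at 2515 FPKM, Rpl32 at 2388 and Rps9 at 2160.3. The 20 highest members held 86.6% of the summed FPKM. Among the highest genes the libraries overlapped widely: Rplp1 ran from 1688 to 3169 FPKM and Rpl32 from 1177 to 3522, so that their order cannot be told apart.

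**Figure D1:**
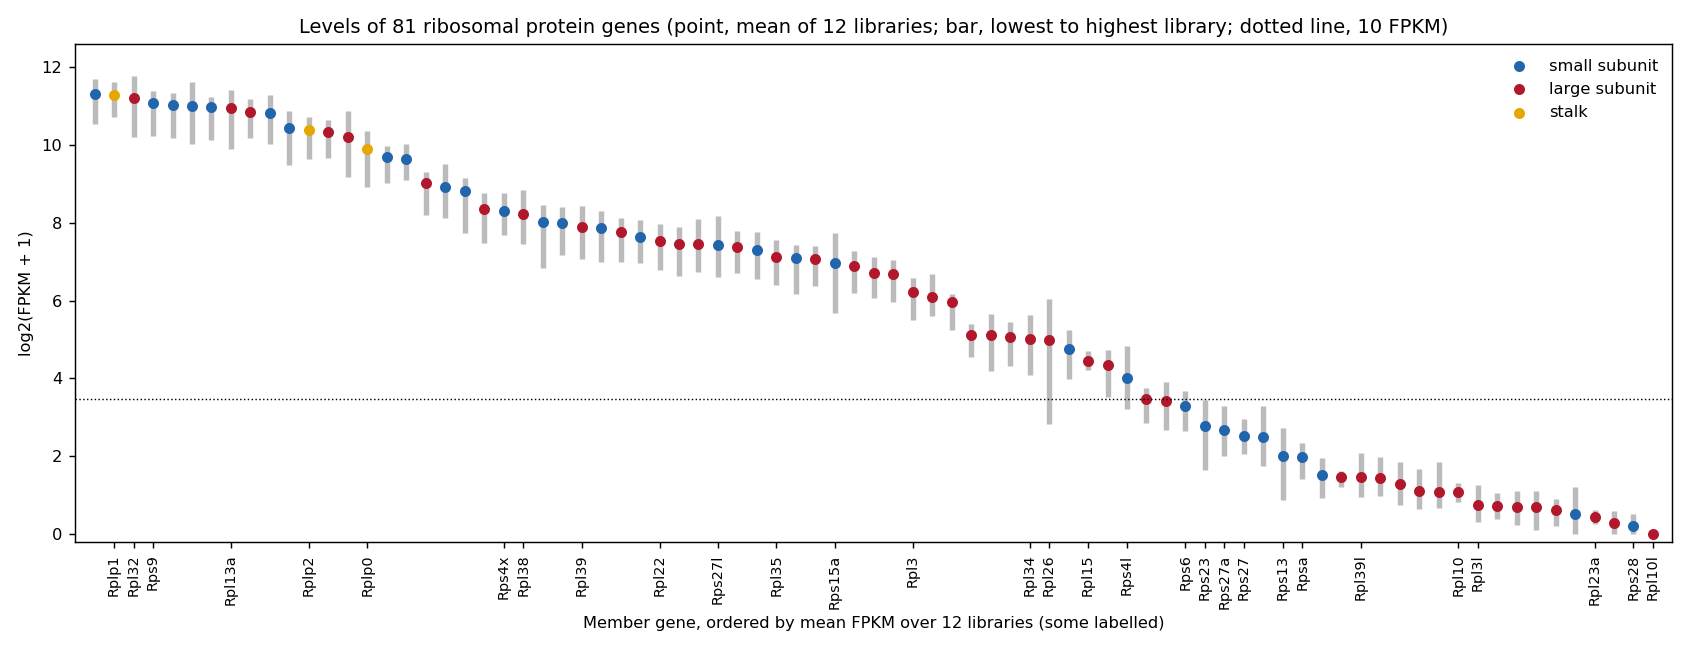
Level of each of the 81 members on the log2(FPKM + 1) scale, ordered by mean FPKM, with some of the genes labelled. Points are means over 12 libraries, bars run from the lowest to the highest library, and colours give the subunit. The levels reach 2515 FPKM for Rplp1 and 0 for Rpl10l, and Rpl26 has the longest bar among the members above the dotted line at 10 FPKM.

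Low values were spread over members of both subunits. The 9 members under the filter were not tested. They included Rpl10a at 0.649 FPKM, Rpl27 at 0.617, Rpl24 at 0.607, Rpl12 at 0.520, Rpl23a at 0.357, Rpl28 at 0.209, Rps28 at 0.160 and Rpl10l, a paralog of Rpl10 used in male germ cells, which was listed at 0 in all 12 libraries. Rpl10 itself, which is joined to the large subunit late in assembly, averaged 1.13 FPKM. Every member but Rpl10l had a value above 0 in at least 1 library of each group, and none was left out as a failed estimate. Relatives outside the rule could be higher: Rpl34 averaged 31.5 FPKM while the entry Rpl34-ps1, which the rule leaves out, averaged 1036. Rps3a1, Rpl36al and Rpl22l1, which also have symbols outside the rule, averaged 190.4, 261 and 135 FPKM.

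For 80 members the share of the mRNA that also occurs in another gene was counted, as 50-base stretches found unchanged in a transcript of any other gene (GENCODE M21). Members of at least 1000 FPKM had a median share of 33.5% (n = 14), those from 100 to under 1000 had 55.0% (n = 28), those from 10 to under 100 had 75.8% (n = 12) and those under 10 had 76.7% (n = 26). Across 79 members with a value above 0, Spearman's rho between level and this share was -0.50, and between level and mRNA length 0.02. This is a description across genes, which share the libraries and are not independent. Rpl32, at 2388 FPKM, shared 30.6% of its stretches, whereas Rps27 at 4.69 FPKM had 98.6% and Rpl10 92.1%. Rpl3l, the striated muscle paralog of Rpl3, and Rpl39l were low with no shared stretch, and Rpl35 at 137 FPKM had 95.1%. The treatment of fragments that match several genes is not given in the sources used here. A member's FPKM is therefore uncertain as a level where this share is high. The median share over the 80 members was 58.7%. Rpl26 (71.3%) and Rps27a (71.9%) lay above it, and Rps23 (51.7%) and Rps15a (49.1%) below it.

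**Figure D2:**
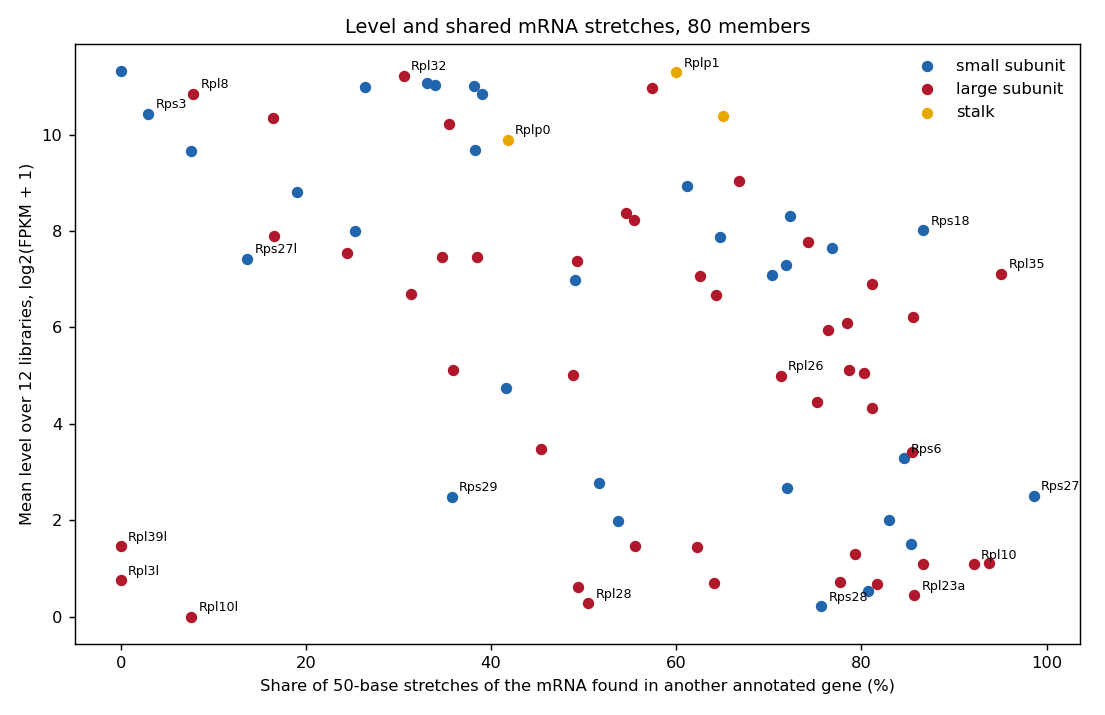
Mean level of 80 members (vertical axis, log2(FPKM + 1) over 12 libraries) against the share of 50-base stretches of their mRNA found in another annotated gene (horizontal axis, percent). Most members above 1000 FPKM lie under 60%, and most of those under 10 FPKM lie above it, with Rpl3l, Rpl39l and Rpl10l as low members that share little.

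Summed over the 81 members, ribosomal protein mRNA spread more widely among the 3 control libraries, and among the 3 antiPDL1 libraries, than the 4 group means did. The sums were 35645, 39793 and 34662 FPKM in the combination libraries, 44610.5, 39448 and 37258 in polyIC, 42856, 38513 and 23529.6 in antiPDL1 and 20105, 29751 and 38269 in control. As group values they were 36700.0 ± 2723 in combination, 40438 ± 3775 in polyIC, 34966 ± 10139.7 in antiPDL1 and 29375 ± 9088 in control (SD, n = 3 each). The combination and polyIC libraries lay close together, whereas antiPDL1 replicate 2 and control replicate 0 were low and control replicate 2 was high. As a share of each library's total the members took 5.59, 5.90 and 5.55% in combination, 6.58, 6.34 and 6.54% in polyIC, 6.58, 6.02 and 4.81% in antiPDL1 and 4.22, 5.24 and 7.54% in control. On this scale all 9 libraries of the treated groups lay between the lowest and the highest control.

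The makeup of the sum hardly varied: small subunit members gave 51.3% to 54.4% of it, large subunit members 31.6% to 35.9% and the stalk genes 12.2% to 15.2% over the 12 libraries. Over the 55 members of at least 10 FPKM, the median coefficient of variation between libraries of a group was 11.9% in combination, 10.1% in polyIC, 30.4% in antiPDL1 and 30.1% in control. Control replicate 0 was the lowest of all 12 libraries for 45 of these 55 members. Within the controls, replicate 2 was the highest for 43 of the 55 and the lowest for 6. Replicate 2 of antiPDL1 was the lowest of its group for 54 of 55.

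Markers of other cell types differed between these libraries. Of 10 Kupffer cell markers, genes of the resident liver macrophage, Cd5l was left out because it was listed at 0 in every control library and at 5 FPKM or more in each library of another group. The other 9 summed to 1098, 673 and 571 FPKM in the combination libraries, 1844, 2938 and 2525 in polyIC, 1647, 4509 and 8170.3 in antiPDL1 and 11181, 12912 and 2658 in control. The 3 libraries with the lowest member sums, control replicates 0 and 1 and antiPDL1 replicate 2, were the 3 with the highest Kupffer cell sums. At the other end the orders differed. The 3 combination libraries had the lowest Kupffer cell sums, while the highest member sum was that of polyIC replicate 0. The 13 T cell markers in the table summed to 2512 to 3161 FPKM in combination, 1667 to 2384 in polyIC, 824 to 2116 in antiPDL1 and 392 to 1087 in control. Control replicate 2 was the highest control for T cell, NK cell, B cell, plasma cell, neutrophil, monocyte, dendritic cell and erythroid markers. It was the lowest control for Kupffer cell, hepatocyte and endothelial markers. The 10 B cell markers summed to 1353 FPKM in control replicate 2, against 472 and 609.7 in control replicates 0 and 1. The part of these cell types in the values of the ribosomal protein genes was not tested.

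**Figure D3:**
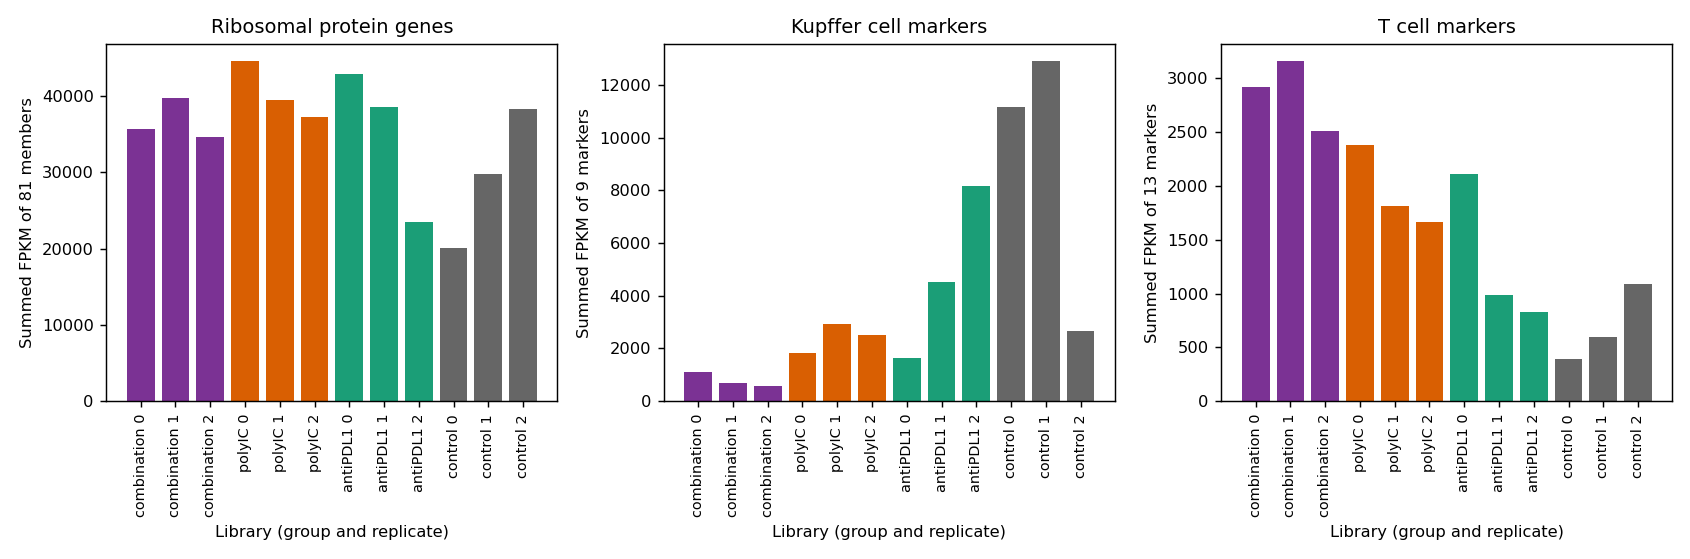
Summed FPKM per library for the 81 ribosomal protein genes (left), 9 Kupffer cell markers (middle) and 13 T cell markers (right), with the libraries of the combination, polyIC, antiPDL1 and control groups from left to right. antiPDL1 replicate 2 and control replicates 0 and 1 are low on the left and high in the middle.

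The members varied largely together. Over the 55 members of at least 10 FPKM, the SD of log2(FPKM + 1) over 12 libraries had a median of 0.37, and after the median deviation of the 55 was taken out of each library it was 0.17. It became smaller for 53 of the 55. Because the median came from these same 55 genes, part of the drop is built in, and no other gene set was put through this step. Rpl6 followed the others most closely, with an SD of 0.04 after this step, and Rpl3 had 0.07. An SD over 0.3 remained for 6 members, which are named here after their values were seen and carry no test: Rpl26 at 0.81, Rps4l at 0.65, Rpl34 at 0.44, Rps27l at 0.40, Rps15a at 0.36 and Rps16 at 0.31. In control replicate 2, where most members were high, Rpl26, Rpl34, Rps27l and Rps16 stood apart at -2.04, -0.98, -0.86 and -0.82 on the log2 scale from the median member. Their ratio of control replicate 2 to control replicate 0 was 0.502, 0.656, 0.821 and 0.924 in that order, while Rpl39 and Rpl23 each reached 2.57. Rps4l was highest relative to the median member in control replicate 0, at 1.09, and Rps15a in polyIC replicate 0, at 0.54.

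In the combination group, 4 of the 72 members tested were higher than in control and none was lower: Rpl26, a protein near the exit of the peptide tunnel of the large subunit, Rps23, which lies at the decoding centre of the small subunit, Rps27a, which is made as a fusion with ubiquitin, and Rps15a of the small subunit. They passed limma's moderated test on log2(FPKM + 1) with a Benjamini-Hochberg adjusted p under 0.05 over the 11990 genes tested, and differences on this scale understate the change of low genes. That is 5.56% of the members, against 29.4% of all genes tested (13.1% higher and 16.3% lower), so that the members' share of calls was under the background. The median log2 difference of the members was 0.32, against 0.05 over all genes, and it was above 0 for 69 of 72. In the same comparison 13 of 13 T cell markers were called higher, and 8 of 9 Kupffer cell, 12 of 14 hepatocyte and 10 of 10 B cell markers tested were called lower. Their part in the members' differences was not tested.

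Rpl26 had 27.4, 51.1 and 43.8 FPKM in the combination libraries and 12.2, 18.4 and 6.13 in the control libraries. Every combination library exceeded every control, and the log2 difference was 1.73 (SE 0.42, limma adjusted p = 0.0120). Rps23 had 5.64, 9.93 and 6.55 FPKM in the combination libraries and 3.04, 4.16 and 2.13 in the control libraries, again without overlap, with a log2 difference of 1.02 (SE 0.29, limma adjusted p = 0.0232). Rps27a had 5.69, 8.84 and 6.38 FPKM in the combination libraries and 3.10, 4.18 and 2.99 in the control libraries. These groups did not overlap either, and the log2 difference was 0.84 (SE 0.26, limma adjusted p = 0.0302). For these 3 genes replicate 2, which had the highest control sum of the members, was the lowest control. Rps15a had 125, 153 and 143 FPKM in the combination libraries and 50.4, 78.6 and 105 in the control libraries, where control replicate 2 was the highest control but still under every combination library, and a log2 difference of 0.90 (SE 0.30, limma adjusted p = 0.0450).

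Next in size, and short of the threshold, were Rps27l at 0.82 (limma adjusted p = 0.0699), Rps13 at 0.81 (0.0707), Rpl34 at 0.74 (0.102) and Rplp0 at 0.73 (0.0974). At the other end stood Rps4l, a paralog of the X-linked Rps4x. It had 12, 8.35 and 11.4 FPKM in the combination libraries and 18.9, 22.6 and 13 in the control libraries, with every combination library under every control. Its log2 difference was -0.71 (SE 0.30, limma adjusted p = 0.0937). Rpl39l followed at -0.36, then Rpl15 at -0.08 and Rps4x at 0.06. In all, 20 members (27.8%) had combination libraries that were all above the controls, against 25.6% of all genes, and 1 member, Rps4l, had them all below, against 20.3%. Among the 30 small subunit members 3 were called and their median difference was 0.38, and among the 39 of the large subunit 1 was called, with a median of 0.32.

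The Rpl26 call was lost without combination replicate 1 (limma adjusted p = 0.0543) and held in the other 11 fits that left out 1 library. Those of Rps23 and Rps27a were lost without control replicate 0, control replicate 2, combination replicate 1 or combination replicate 2, and that of Rps15a without any of control replicates 0 and 1, polyIC replicates 0 and 2 and the 3 combination libraries. The number called higher was 14 (19.4%, against 19.9% of all genes in the same fit) without antiPDL1 replicate 2, 6 (8.33%) without antiPDL1 replicate 0 or control replicate 2 (against 13.6% and 13.9% of all genes), 1 (1.39%) without control replicate 0 or combination replicate 2 (against 5.8% and 8.65%) and 0 without combination replicate 1 (against 5.17%). Without control replicate 2 Rps4l was also called lower, against 20.7% of all genes in that fit. The members' median was 0.12 without control replicate 0 and 0.53 without control replicate 2. Rps15a also missed the threshold under quantile normalization (limma adjusted p = 0.105), median-of-ratios rescaling (0.0584), a total without small RNA genes (0.0965), no filter (0.0609), a mean of at least 5 FPKM (0.0562) and the replicate block (0.0597), and was called in 9 of 22 other fits. With array quality weights, which ran from 0.209 for antiPDL1 replicate 2 and 0.264 for control replicate 2 to 6.36 for combination replicate 1, 35 members (48.6%) were called higher and 2 lower, against 31.1% and 26.3% of all genes.

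**Figure D4:**
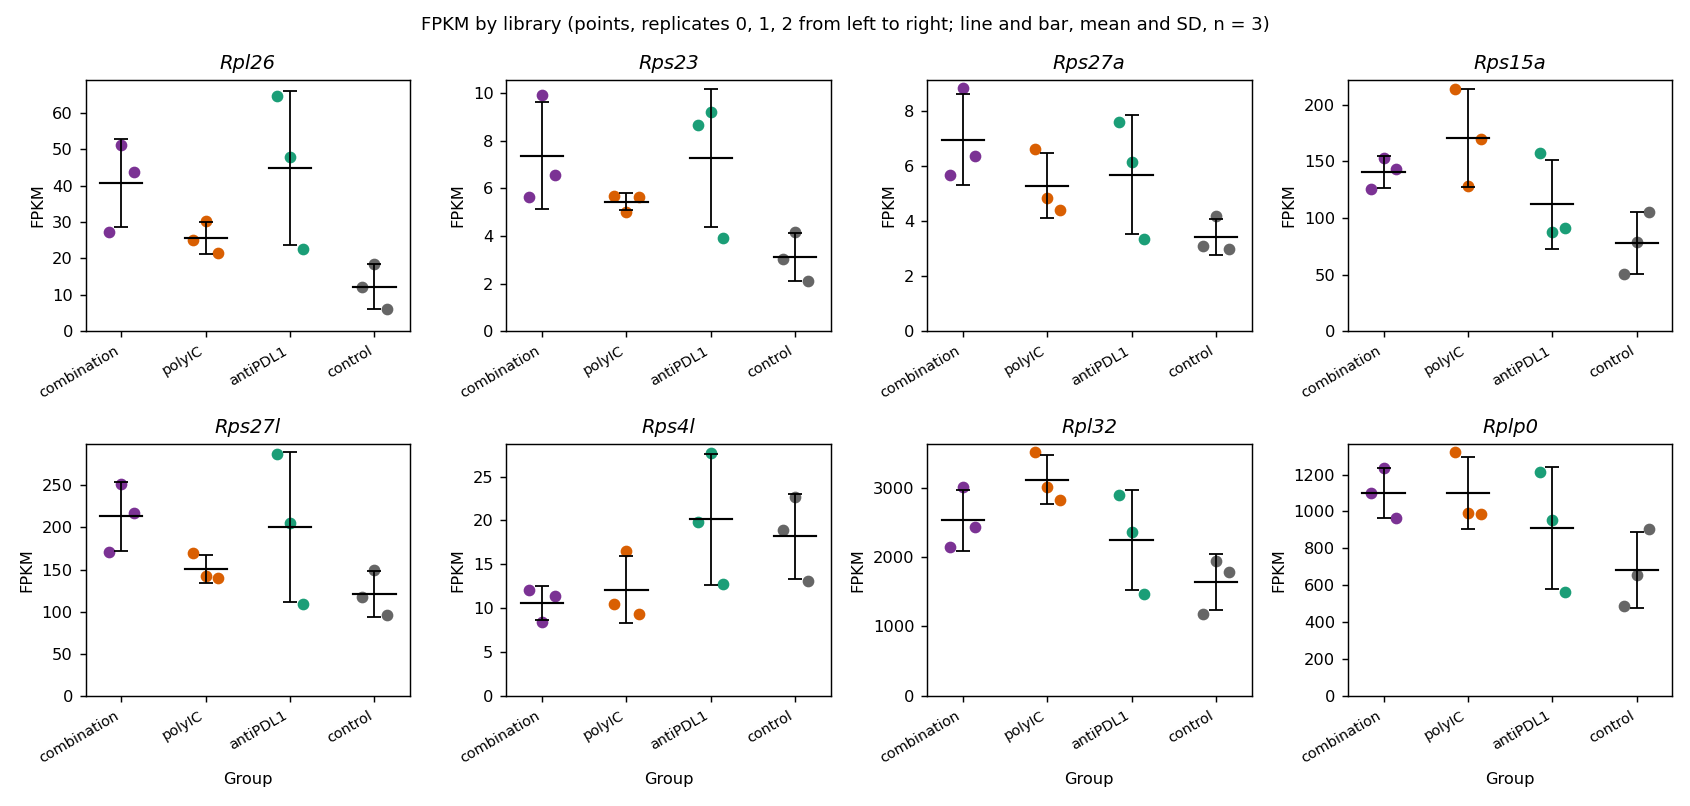
FPKM of 8 members in each library, with the combination, polyIC, antiPDL1 and control groups from left to right (points, libraries; horizontal line and bar, mean and SD, n = 3). For Rpl26, Rps23, Rps27a and Rps15a the combination libraries lie above the controls, and for Rps4l they lie under them.

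**Figure D5:**
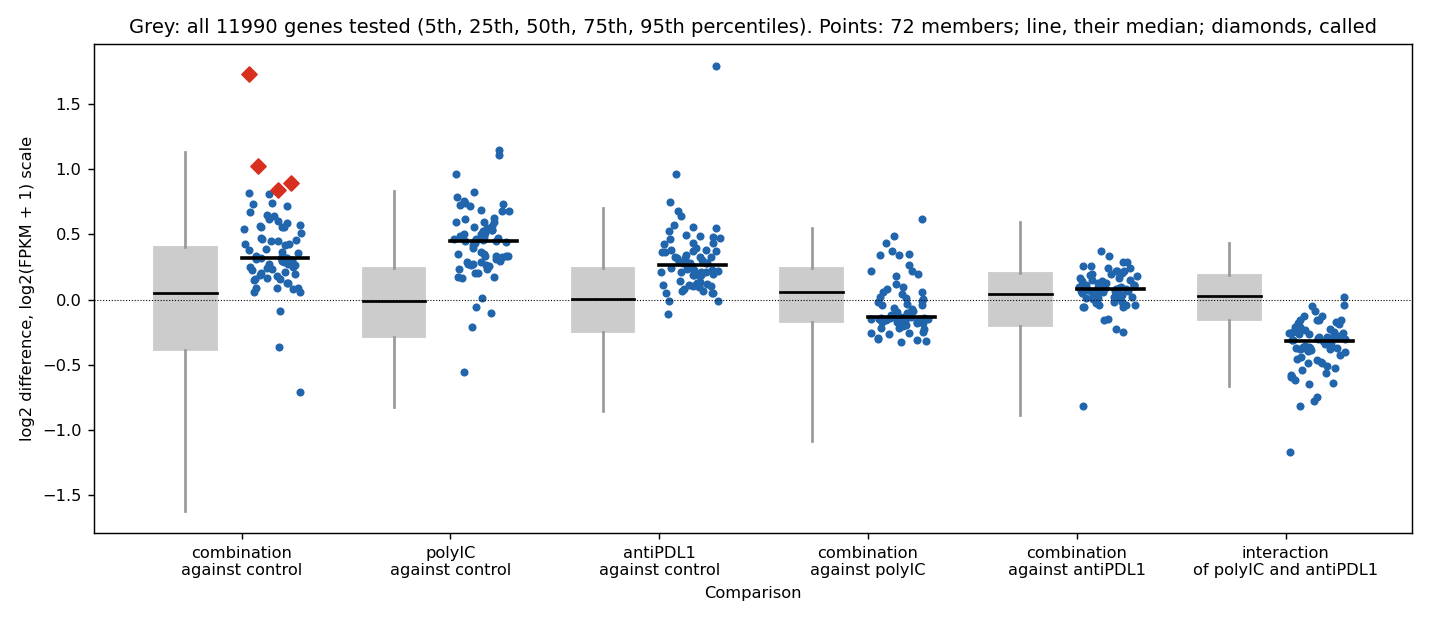
Log2 difference in each comparison for the 72 members tested (points, with their median as a line and called members as diamonds) beside all 11990 genes tested (grey box from the 25th to the 75th percentile with the median, whiskers at the 5th and 95th). The members' median lies at 0.32, 0.45 and 0.26 for combination, polyIC and antiPDL1 against control, and at -0.32 for the interaction.

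With polyIC alone most members had higher means than in control, and none passed the test. The median log2 difference was 0.45, against -0.01 over all genes tested, and it was above 0 for 68 of 72 members. The 10 NK cell markers summed to 2603 to 4422 FPKM in polyIC and 291 to 793 in control and the 9 neutrophil markers to 3355 to 5679.6 in polyIC and 991 to 3123 in control, and their part in the members' differences was not tested. limma called 0 members, against 3.64% of all genes (2.47% higher and 1.18% lower), and at an unadjusted p under 0.05 it gave 16 members higher and 0 lower (22.2%, against 11% of all genes higher). The 3 polyIC libraries were all above the 3 controls for 27 members (37.5%), against 16.2% of all genes, and all below them for 0 members, against 12.4%. Rps15a had the largest difference. It had 214, 128 and 169.9 FPKM in the polyIC libraries and 50.4, 78.6 and 105 in the control libraries, without overlap, and a log2 difference of 1.15 (SE 0.30, limma adjusted p = 0.0616).

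Rpl26 followed, at 25.2, 30.2 and 21.5 FPKM in the polyIC libraries and 12.2, 18.4 and 6.13 in the control libraries. The groups did not overlap and the log2 difference was 1.11 (SE 0.42, limma adjusted p = 0.154). Rpl32 had 3522, 3022 and 2834 FPKM in the polyIC libraries and 1177, 1949 and 1788 in the control libraries, also without overlap, and a difference of 0.96 (SE 0.30, limma adjusted p = 0.0980). Rpl36 was at 0.82 (limma adjusted p = 0.102), and the 4 lowest members were Rps4l at -0.56, Rpl39l at -0.21, Rps29 at -0.11 and Rpl10 at -0.06. Of the 4 group means, polyIC gave the highest for 48 of the 72 members and control the lowest for 64. The number called higher was 6 (8.33%, against 5.72% of all genes in the same fit) without control replicate 2, 5 (6.94%, against 5.2%) without antiPDL1 replicate 2 and 1 (1.39%, against 3.43%) without antiPDL1 replicate 0. It was 3 (4.17%, against 4.07%) under quantile normalization and 28 (38.9%, against 13.5%) with array quality weights, and the median was 0.26 without control replicate 0.

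With the antibody alone the members' median log2 difference was 0.26, against 0.01 over all genes, and again no member passed. limma called 0 members, against 0.209% of all genes, all of them lower, and at an unadjusted p under 0.05 it gave 4 members higher, Rpl26, Rps23, Rps13 and Rpsa (5.56%, against 7.62% of all genes higher). Rpl26 was the 1 member whose groups did not overlap (1.39%, against 4.61% of all genes higher), and none had antibody libraries all under the controls, against 7.89% of all genes. It had 64.5, 47.7 and 22.5 FPKM in the antiPDL1 libraries and 12.2, 18.4 and 6.13 in the control libraries, with the lowest antibody library just above the highest control. Its log2 difference was 1.79 (SE 0.42, limma adjusted p = 0.143).

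Rps23 had 8.66, 9.18 and 3.93 FPKM in the antiPDL1 libraries and 3.04, 4.16 and 2.13 in the control libraries, which overlapped, and a difference of 0.96 (limma adjusted p = 0.197). Rps13 was at 0.75 and Rpl34 at 0.68. The 4 lowest were Rpl39l at -0.11, Rpl23 at -0.01, Rpl39 at -0.01 and Rps27 at 0.05. The values turned on single libraries: the median was 0.05 without control replicate 0, 0.11 without antiPDL1 replicate 0, 0.14 without antiPDL1 replicate 1, 0.43 without control replicate 2 and 0.52 without antiPDL1 replicate 2, where 11 members (15.3%) were called higher, against 11.9% of all genes in that fit. With array quality weights 6 members (8.33%) were called higher, against 10.2% of all genes.

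The 3 comparisons against control share the 3 control libraries, so their values for a member are not independent of each other. With FPKM rescaled to a total without small RNA genes, the median over all genes tested shifted to -0.13 in combination, -0.15 in polyIC and -0.18 in antiPDL1 against control. The members' medians on that scale were 0.14, 0.31 and 0.06 in the same order, each above the median of all genes.

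Combination libraries were compared with each single treatment. Against polyIC the members' median log2 difference was -0.13, against 0.06 over all genes, and it was below 0 for 51 of 72. limma called 0 members, against 1.23% of all genes (0.167% higher and 1.07% lower), and gave 0 at an unadjusted p under 0.05, against 4.3% of all genes higher and 13.6% in either direction. The combination libraries were all below the polyIC libraries for 9 members (12.5%), against 16.1% of all genes, and all above for 1 member (1.39%), Rps27l, against 13.3%. Rps27l had 170.3, 251 and 218 FPKM in the combination libraries and 169.8, 142 and 139.7 in the polyIC libraries, with a difference of 0.49 (SE 0.31, limma adjusted p = 0.530). Rpl26 was at 0.62, Rpl34 at 0.43 and Rps13 at 0.37, and the 4 lowest were Rps27 at -0.32, Rpl38 at -0.32, Rpl32 at -0.31 and Rpl39 at -0.31. The median was -0.07 without polyIC replicate 0 and -0.08 without combination replicate 0. With array quality weights 6 members were called higher and 1 lower (8.33% and 1.39%), against 15.6% and 14.9% of all genes.

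Against the antibody the median was 0.08, against 0.04 over all genes. limma called 0 members, against 0.125% of all genes (0.1% higher and 0.025% lower). At an unadjusted p under 0.05 it gave 1, Rps4l, lower and 0 higher, against 14.4% of all genes in either direction and 6.31% higher. Rps4l was also the 1 member whose groups did not overlap (1.39%, against 12.1% of all genes lower and 8.28% higher), with 12, 8.35 and 11.4 FPKM in the combination libraries and 19.8, 27.7 and 12.8 in the antiPDL1 libraries. Its difference was -0.82 (SE 0.30, limma adjusted p = 0.253). The 4 highest were Rps15a at 0.37, Rplp0 at 0.34, Rpl13a at 0.29 and Rps27a at 0.29, and Rps4l was followed at the low end by Rpl39l at -0.25, Rpl11 at -0.23 and Rps29 at -0.15. The median was -0.18 without antiPDL1 replicate 2, where it changed sign, 0.24 without antiPDL1 replicate 0, 0.19 without antiPDL1 replicate 1, 0.03 without combination replicate 1, and 0.12 without combination replicate 0 or combination replicate 2.

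The interaction asks whether the difference made by polyIC was the same with the antibody as without it. Its value was below 0 for 71 of the 72 members, with a median of -0.32, against 0.03 over all genes, and these values share the same 12 libraries. limma called 0 members, against 0.025% of all genes (0.00834% above 0 and 0.0167% below). At an unadjusted p under 0.05 it gave 1, Rpl36, below 0, against 2.44% of all genes in either direction and 0.909% above 0. The lowest were Rpl26 at -1.17 (SE 0.59), Rpl36 at -0.82 (SE 0.37), Rps15a at -0.78 and Rpl32 at -0.74, each with a limma adjusted p = 0.999. The highest were Rpl10 at 0.02, Rpl39l at -0.04, Rps29 at -0.05 and Rpl5 at -0.09. The median was -0.15 without control replicate 0, -0.18 and -0.20 without antiPDL1 replicates 0 and 1, -0.52 without control replicate 2 and -0.58 without antiPDL1 replicate 2.

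Members named by their size of difference also include proteins with roles outside the ribosome. Rpl5 and Rpl11, which with the 5S ribosomal RNA can bind the p53 regulator Mdm2, differed from control by 0.51 and 0.16 in combination, 0.18 and 0.41 in polyIC and 0.43 and 0.38 in antiPDL1, with no call. Rpl13a, which in human myeloid cells joins a complex that silences inflammatory mRNAs after interferon-gamma, had 1889, 2629.8 and 2059 FPKM in the combination libraries, 2728, 2515 and 1977 in the polyIC libraries, 2731, 1851 and 1107 in the antiPDL1 libraries, and 953, 1572 and 1882 in the control libraries. Its lowest libraries were control replicate 0 and antiPDL1 replicate 2, the 2 lowest for the summed members, and its combination and polyIC libraries were all above the controls. Rpl36 of the large subunit had 17.1, 20.8 and 20.5 FPKM in the combination libraries, 24.6, 23.4 and 22.7 in the polyIC libraries, 25.5, 24.5 and 11.5 in the antiPDL1 libraries, and 10.4, 16.0 and 12.9 in the control libraries. Its highest mean was that of polyIC, and its interaction value of -0.82 was the 1 that passed an unadjusted p under 0.05.

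Rps13, a small subunit protein, had 2.94, 4.58 and 3.72 FPKM in the combination libraries, 3.41, 2.38 and 2.21 in the polyIC libraries, 5.65, 3.62 and 1.95 in the antiPDL1 libraries, and 1.84, 2.67 and 0.841 in the control libraries, with control replicate 2 lowest of all 12. Rpl38, whose loss in mice alters the body plan, had 302, 311 and 279 FPKM in the combination libraries and 463, 338 and 325 in the polyIC libraries, without overlap. Rpl39, a short protein lining the exit tunnel, had 267, 197 and 248 FPKM in the combination libraries and 287, 305 and 283 in the polyIC libraries, again without overlap. The other 7 members with every combination library under every polyIC library included Rpl7, Rpl22, Rpl36, Rpl37 and Rps24, and the largest of these differences was -0.27, for Rpl36. Rpl22, needed in mice for the development of conventional T cells, had 181, 199 and 186 FPKM in the combination libraries, 249.7, 204 and 206 in the polyIC libraries, 227, 174 and 134 in the antiPDL1 libraries, and 109.7, 153 and 204 in the control libraries.

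Paralog pairs differed in level and in how they varied. Rps27l averaged 213 ± 40.7 FPKM in combination, 150.5 ± 16.8 in polyIC, 200.3 ± 89.1 in antiPDL1 and 121 ± 27.2 in control (SD, n = 3 each). Its partner Rps27, which shares 98.6% of its 50-base stretches with other genes, averaged 4.54 ± 0.961, 5.89 ± 0.760, 4.29 ± 1.21 and 4.05 ± 0.427 in the combination, polyIC, antiPDL1 and control groups. Rps27l was lowest in control replicate 2 and Rps27 was not. Rps4x, the X-linked S4 gene, averaged 304 ± 24.7 FPKM in combination, 353 ± 31.7 in polyIC, 302 ± 33.5 in antiPDL1 and 306 ± 120.0 in control, and its log2 differences from control ran from 0.05 to 0.27. Rps4l averaged 10.6 ± 1.97, 12.1 ± 3.84, 20.1 ± 7.48 and 18.2 ± 4.85 in the same order, with the combination and polyIC means under those of antiPDL1 and control.

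Rpl3 averaged 73.6 FPKM over the 12 libraries and Rpl3l 0.688. Rpl39 averaged 238 FPKM and Rpl39l 1.75, with the highest Rpl39l value, 3.24, in control replicate 1. The stalk genes, whose proteins recruit elongation factors to the ribosome, had differences of unequal size: Rplp0 had 1099, 1237 and 964 FPKM in the combination libraries, 1324, 992 and 985 in the polyIC libraries, 1216, 953 and 561 in the antiPDL1 libraries, and 488, 654 and 902 in the control libraries. Its combination and polyIC libraries were all above the controls, and its antiPDL1 libraries overlapped them. Rplp1 differed from control by 0.09 in combination, 0.26 in polyIC and 0.11 in antiPDL1, and Rplp2 by 0.29, 0.45 and 0.28 in those groups. Rpsa, which also gives rise to a laminin receptor, averaged 2.97 FPKM and differed from control by 0.57 in combination (limma adjusted p = 0.0623), 0.47 in polyIC (0.215) and 0.47 in antiPDL1 (0.291).

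Other genes of the translation machinery were set beside the members. In combination against control 8 of 37 initiation factor genes were called higher and 0 lower, with a median log2 difference of 0.41. They included the cap-binding protein Eif4e at 0.83 (limma adjusted p = 0.00692), Eif1a at 0.68 and Eif2s1 at 0.83. Eif4e had 28.8, 34.2 and 31.6 FPKM in the combination libraries and 14.6, 17.3 and 20.3 in the control libraries. Of 10 elongation and termination genes 4 were higher, among them the release factors Gspt1 at 0.49 and Etf1 at 0.54, and 1 was lower, the elongation factor kinase Eef2k at -0.83. Eef1a1 was listed at 0 in every library and could not be tested. Of 37 ribosome biogenesis genes 2 were higher, Nop58 at 0.81 and Ebna1bp2 at 0.68, and of 7 ribosome-associated genes 3 were, Tpt1 at 0.77, Serbp1 at 0.56 and Btf3 at 0.77. None of 14 genes of Myc and mTOR signalling was called. These counts stand against 13.1% of all genes called higher and 16.3% lower, and in the other 5 comparisons no gene of these lists was called.

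The cytosolic members were last set beside the genes of the mitochondrial ribosome. In combination against control 4 of 72 cytosolic members (5.56%) were called higher, with a median of 0.32, against 15 of 76 mitochondrial ribosomal protein genes (19.7%) with a median of 0.46, and 0 of either list were called lower. In polyIC against control the medians were 0.45 for the cytosolic members and 0.22 for the mitochondrial genes, and in antiPDL1 against control 0.26 and 0.34. In combination against polyIC they were -0.13 for the cytosolic members and 0.24 for the mitochondrial genes. The difference between the lists was not tested.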

How the data were processed

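Poly(A) mRNA of CD45-positive liver cells was sequenced from 12 libraries, 3 per group, with a stranded kit, per the labels' protocols. The authors deposited 1 table of FPKM values for 24319 entries. The submitters' processing notes name Cuffdiff and mm9, while a version, an aligner, an annotation and the scaling are not given in these sources. That the deposited values are FPKM was read from the values. Read counts were not used here, so depth was only estimated, relative to the deepest library, and no counting intervals are given.

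log2(FPKM + 1) was fitted with limma 3.58.1 (trend, R 4.3.3) to the 12 libraries together, with a mean per group and no other term. A gene was kept where 3 or more libraries reached 1 FPKM. Left out were 10 entries at 0 in a whole group but at least 5 FPKM in every library of another, none of them a member, leaving 11990 genes. P-values were adjusted by the Benjamini-Hochberg method over all of these, with 0.05 as the threshold, and the fit was tested on simulated data. Named are members that pass in any comparison, the 5 highest and 5 lowest by level, the 4 highest and 4 lowest differences per comparison, listed paralogs, the stalk genes and Rpsa, members under the filter, and up to 3 genes of each other list by adjusted p. Rps6, Rps16, Rpl22, Rpl35, Rpl6 and others given as examples of spread, overlap or sequence were chosen after their values were seen. A few members the rule names are not reported here by name. The members and lists were chosen with earlier results of these data known. Shared stretches were counted in GENCODE M21 transcripts. The alternatives tried were other scalings, no filter, a mean of at least 5 FPKM, a pseudocount of 0.1, only the compared groups, the replicate number as a block, array quality weights and each library left out. Added after seeing the data were control replicate 2 with antiPDL1 replicate 2 left out together, and members of at least 10 FPKM alone.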

Additional observations from a re-analysis of the deposited data

How the results depend on the processing

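Calls of ribosomal protein genes depended on a few libraries, and so did calls over all genes, whose share in the same fit is in parentheses. In combination against control the 4 called higher (13.1%) became 9 under quantile normalization (16.7%) and 35 with array quality weights (31.1%). They became 33 with control replicate 2 and antiPDL1 replicate 2 both left out (20.9%). Among the 55 members of at least 10 FPKM, 2 were called higher (3.64% of the 55, against 13.1% of all genes). Lower calls, 0 at first (16.3%), became 1 (Rps4l) under quantile normalization (13.7%), median-of-ratios rescaling (18.9%) and a total without small RNA genes (22.6%). They were 1 (Rps4l) with both libraries out (22.3%) and 2 (Rps4l and Rpl39l) with weights (26.3%). In polyIC against control the 0 higher calls became 3 under quantile normalization (4.07%), 28 with weights (13.5%) and 34 with both libraries out (10.1%). With weights 1 was lower (15.2%). In antiPDL1 against control the higher calls, also 0 at first, became 6 with weights (10.2%) and 38 with both libraries out (14.4%), where the median was 0.68. With weights combination had 6 higher and 1 lower against polyIC (15.6% and 14.9%) and 1 lower against antiPDL1 (3.94%). The median interaction was -0.76 with both libraries out. Of 55 members of at least 10 FPKM, control replicate 2 was the highest control for 43 and antiPDL1 replicate 2 the lowest of its group for 54. Leaving both out, a choice made after the data were seen, lowers that control mean and raises that antiPDL1 mean. The counts without them are therefore no separate support for a difference from control. The cause of the dependence on a few libraries was not tested.

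Leaving out 1 library at a time, the members' median ran from 0.12 to 0.53 for combination, 0.26 to 0.59 for polyIC and 0.05 to 0.52 for antiPDL1 against control. It ran from -0.16 to -0.07 for combination against polyIC, -0.18 to 0.24 for combination against antiPDL1 and -0.58 to -0.15 for the interaction. Higher calls ran from 0 to 14 for combination, 0 to 6 for polyIC and 0 to 11 for antiPDL1 against control, while 5.17% to 19.9%, 0.267% to 5.72% and 0% to 11.9% of all genes were called higher. Lower calls ran from 0 to 1 for combination against control, where 8.71% to 20.7% of all genes were called lower, and were 0 elsewhere. In those other comparisons the share of all genes called lower reached 9.87% for polyIC and 5.5% for antiPDL1 against control. It reached 4.07% for combination against polyIC, 1.48% for combination against antiPDL1 and 0.025% for the interaction.

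With the replicate number as a block, 6 members were called higher in combination against control (15.6% of all genes) and 0 in the other comparisons. In these, 2.47% of all genes were called higher for polyIC and 0% for antiPDL1 against control. The share was 0.0167% for combination against polyIC, and 0.00834% both for combination against antiPDL1 and for the interaction. Of the 4 called without the block, Rps15a was lost, and Rpl34, Rps13 and Rpsa were gained. Of 18 same-numbered pairs of libraries, 4 had a correlation of deviations over 0.1 (range -0.284 to 0.311). Pairs with different numbers ran from -0.303 to 0.372. Whether the numbers pair the libraries is not given in the labels and was not tested. The fit of only the compared groups was not run for the interaction. Without counts, the depth behind low members is unknown.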
